A study of Homo sapiens with 9 samples.

Results

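NDRG1, VEGFA, ADM, EPAS1 and HK2 are 5 genes linked to the response of cells to low oxygen, followed here in HT-29, a long-used epithelial cell line from a human colon adenocarcinoma. In GRCh38.p14, NDRG1 lies at chr8:133237175-133297252, VEGFA at chr6:43770211-43786487, ADM at chr11:10305073-10307397, EPAS1 at chr2:46297407-46386697 and HK2 at chr2:74834127-74893359. They were picked by symbol from the platform's annotation, with their levels in these arrays already known, and each has 1 row among the 53617 rows of the array and the 14884 genes the annotation names. Because the choice used these measurements, the levels of the 5 genes are given as a description and without a test. RNA was read on Affymetrix whole-transcript gene arrays in 3 groups of 3 arrays, all from cells harvested after 24 h. Untreated cells received vehicle. A second group received rosemary extract, a mixture of plant polyphenols, and the other group received carnosic acid, a phenolic diterpene of rosemary. The cells came from a single line grown in serum-containing medium, and no group is labelled as deprived of oxygen. The sources used here state neither the doses nor the oxygen level of the cultures, so a comparison of the treatments is not one at matched doses. The submitters describe them as biological replicates without naming separate cultures or days, so p-values measure the spread between these arrays.

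Cells sense oxygen through prolyl hydroxylases, which need oxygen and iron and mark the alpha subunits of the hypoxia-inducible factors (HIF) for destruction by the VHL ubiquitin ligase. When the hydroxylases slow down, HIF1A or EPAS1 (HIF-2 alpha) pairs with ARNT and binds a short DNA core in target genes, among them NDRG1, VEGFA, ADM and HK2. These targets also answer to other inputs, such as iron chelation, growth factors and stress of the endoplasmic reticulum. In the intestine EPAS1 is known for its part in iron uptake.

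The promoter windows of the members are shown because the HIF core, ACGTG or GCGTG, is the element by which these genes are usually grouped. RefSeq's table for GRCh38.p14 held windows for 3 of the 5 genes: ADM, EPAS1 and HK2. NDRG1 and VEGFA had none. The 250 bases before the start are printed 5′ to 3′ on the gene's strand, which is the plus strand for all 3, with each core on either strand in capitals. The ADM window is chr11:10304823-10305072, the EPAS1 window chr2:46297157-46297406 and the HK2 window chr2:74833877-74834126.
ADM: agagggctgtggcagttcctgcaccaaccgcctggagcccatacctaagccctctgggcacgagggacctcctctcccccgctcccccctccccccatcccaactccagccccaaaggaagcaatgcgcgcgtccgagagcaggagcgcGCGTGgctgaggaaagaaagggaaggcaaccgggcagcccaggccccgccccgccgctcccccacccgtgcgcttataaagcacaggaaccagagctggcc
EPAS1: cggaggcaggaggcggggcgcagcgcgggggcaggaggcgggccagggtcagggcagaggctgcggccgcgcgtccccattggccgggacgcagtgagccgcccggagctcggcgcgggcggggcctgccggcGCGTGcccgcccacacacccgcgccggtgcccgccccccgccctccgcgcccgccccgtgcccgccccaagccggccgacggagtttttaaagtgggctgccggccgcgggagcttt
HK2: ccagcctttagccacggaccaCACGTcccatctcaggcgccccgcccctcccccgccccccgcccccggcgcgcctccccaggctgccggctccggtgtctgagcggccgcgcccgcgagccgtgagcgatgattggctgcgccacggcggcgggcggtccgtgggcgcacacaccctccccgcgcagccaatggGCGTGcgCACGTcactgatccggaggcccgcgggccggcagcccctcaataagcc
The core was found 1 time in the ADM window, from 101 to 97 bases before the start, and 1 time in the EPAS1 window, from 117 to 113 bases before it. The HK2 window held 3, from 229 to 225, from 55 to 51 and from 48 to 44 bases before the start. RefSeq lists another HK2 start further into the gene, whose window of the same length held 6 matches, of which 4 came from CACGTG, a palindrome that is read on both strands. Of 35116 windows of this length, 43.2% held at least 1 core. The antioxidant response letters TGACNNNGC (10.9% of windows) and the ATF4 composite letters TGATGNAA (3.14%) were not in any of these 4 windows on either strand. Matches are letters only, and no binding was measured.

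EPAS1, the transcription factor of the set, was higher with both treatments. Its log2 RMA level (the authors' background-corrected, normalised array value) was 7.15, 6.89 and 7.03 in untreated replicates 1, 2 and 3. It was 8.79, 8.72 and 8.58 with carnosic acid and 9.45, 9.25 and 9.10 with rosemary extract. Each treated array lay above each untreated one, and each extract array above each carnosic acid array. The means were 7.03 ± 0.13, 8.70 ± 0.11 and 9.27 ± 0.18 (SD, n = 3 each). The log2 difference from untreated was 2.24 ± 0.10 with the extract (limma's standard error, SE), a 4.73-fold higher level, and 1.67 ± 0.10 with carnosic acid, or 3.19-fold. The direct difference of extract minus carnosic acid was 0.57 ± 0.10, the smallest of the 4 genes that were higher.

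NDRG1, a cytoplasmic protein that marks cell stress, differentiation and iron shortage, had the widest range of the set. Its log2 level was 5.99, 6.11 and 6.08 in untreated arrays, 7.53, 7.35 and 6.91 with carnosic acid and 8.65, 8.74 and 8.52 with the extract. The groups did not overlap, and the carnosic acid arrays were the most spread (SD 0.32, against 0.06 in untreated and 0.11 in extract arrays, n = 3 each). Replicate 3 was the low array of the carnosic acid group. The log2 difference from untreated was 2.58 ± 0.13 (SE) with the extract, a 5.97-fold higher level, and 1.20 ± 0.13 with carnosic acid, or 2.30-fold. Without carnosic acid replicate 3 the latter was 1.38. Extract minus carnosic acid was 1.38 ± 0.13 with all arrays.

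VEGFA encodes the secreted growth factor that drives blood vessel growth. Untreated arrays read 7.28, 7.23 and 7.36 (log2), carnosic acid arrays 7.69, 7.68 and 7.57, and extract arrays 8.83, 8.83 and 8.57. The carnosic acid group sat just above the untreated group, with a gap of 0.21 between the nearest arrays, whereas the nearest extract array was 1.21 above the highest untreated one. The log2 difference from untreated was 1.45 ± 0.08 (SE) with the extract (2.74-fold) and 0.35 ± 0.08 with carnosic acid (1.28-fold). Extract minus carnosic acid was 1.10 ± 0.08.

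ADM encodes adrenomedullin, a secreted peptide that widens blood vessels. Its log2 level was 6.12, 6.28 and 6.20 in untreated arrays, 6.64, 6.64 and 6.38 with carnosic acid and 7.35, 7.22 and 7.02 with the extract. The groups did not overlap, but only 0.097 separated the lowest carnosic acid array from the highest untreated one. Carnosic acid replicates 1 and 2 held exactly the same ADM value. Such exact ties were found in 2.57% to 5.57% of tested genes between any 2 of the 9 arrays, so a small SD in these values can understate the spread. The log2 difference from untreated was 0.99 ± 0.11 (SE) with the extract (1.99-fold) and 0.35 ± 0.11 with carnosic acid (1.27-fold). Extract minus carnosic acid was 0.64 ± 0.11.

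HK2, the hexokinase isoform that commits glucose to glycolysis in many tumours, went the other way. Its log2 level was 7.71, 7.92 and 7.79 in untreated arrays, 7.69, 7.68 and 7.97 with carnosic acid and 7.31, 7.30 and 7.21 with the extract. Untreated and carnosic acid arrays overlapped, and all 3 extract arrays lay below both groups. The extract level was lower than untreated by a log2 difference of -0.54 ± 0.09 (SE), or 1.45-fold, and lower than carnosic acid by -0.51 ± 0.09, or 1.42-fold. Carnosic acid minus untreated was -0.031, with a 95% interval from -0.23 to 0.17.

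**Figure D1:**
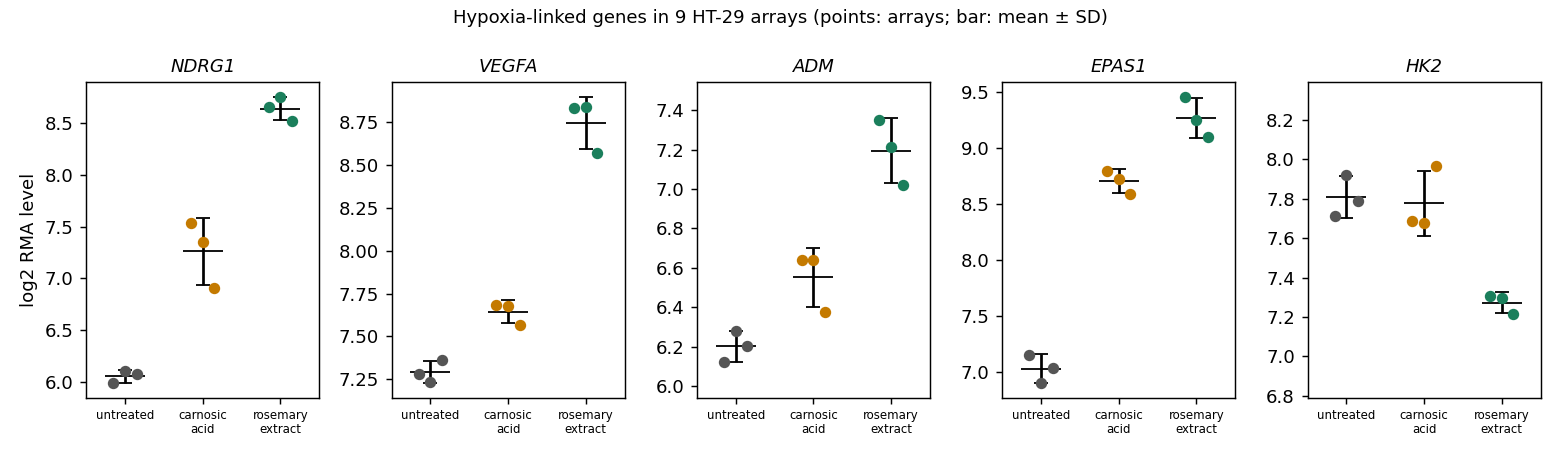
Log2 RMA level of the 5 genes in each array, with untreated, carnosic acid and rosemary extract groups along each panel. Points are arrays and bars are the mean ± SD (n = 3); each panel has its own vertical range. NDRG1, VEGFA, ADM and EPAS1 are lowest in untreated and highest in extract arrays, while HK2 is lowest in extract arrays.

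With rosemary extract, 4 of the 5 genes were higher than in every untreated array and 1 was lower. Groups that do not overlap are common in these data: 2792 of the 11163 tested genes (25%) were higher and 21.7% lower without overlap in this comparison. With carnosic acid, 4 of 5 were higher without overlap (19.7% of tested genes) and HK2 overlapped. Between the treatments 4 were higher with the extract (16.2% of tested genes) and 1 lower (15.6%). The members' counts follow from how the genes were chosen. Both treatments were set against the same 3 untreated arrays. All 5 genes passed the limit that left out the dimmest 25% of genes.

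The order of levels was the same for NDRG1, VEGFA, ADM and EPAS1: untreated, then carnosic acid, then extract, with no overlap between neighbours. The step from untreated to carnosic acid differed between genes. For EPAS1 it was the larger step, whereas for VEGFA and ADM the step from carnosic acid to extract was larger. Rosemary extract replicate 3 was the lowest array of its group for all 5 genes. Carnosic acid replicate 3 was the lowest of its group for the 4 genes that were higher, and the highest for HK2.

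**Figure D2:**
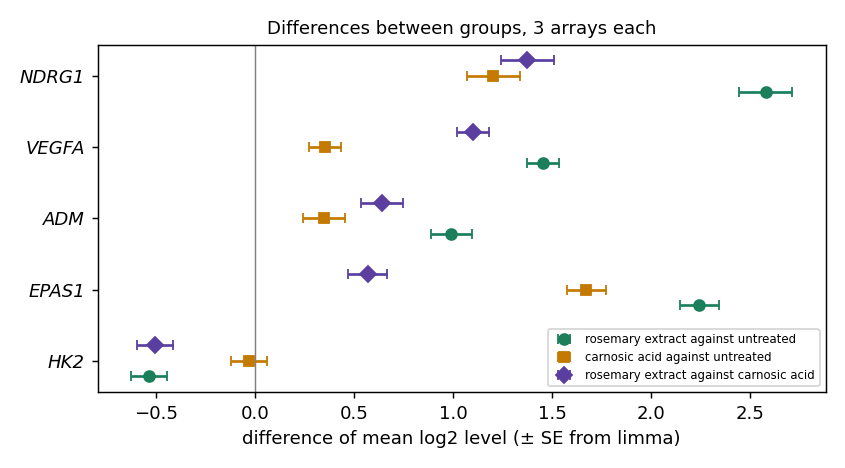
Difference of mean log2 level for the 5 genes in each of the 3 comparisons (horizontal axis, with limma's SE as bars; 3 arrays per group). The extract against untreated differences run from -0.54 for HK2 to 2.58 for NDRG1, and the carnosic acid difference of HK2 lies at -0.031.

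Among genes of oxygen sensing and HIF assembly, EGLN3, ARNT and CREBBP rose with the extract. Of 16 genes listed, 7 had a named row and were tested; HIF1A, VHL, EGLN2 and HIF1AN had no named row here. Each gene was tested with limma, p-values were adjusted by Benjamini and Hochberg's method over all 11163 genes, and an adjusted p under 0.05 counts as a call. With the extract 3 of 7 were called, each of them higher, where 38.1% of all tested genes were called and 21.8% were called higher. The list's median log2 difference was 0.19, beside -0.018 over all tested genes. This list and those that follow were chosen with earlier results of these data known, so their counts and medians are a description. EGLN3, the prolyl hydroxylase that is itself induced by hypoxia, rose by 0.47 ± 0.15 (log2, SE; limma adjusted p = 0.0257). ARNT, the partner of both alpha subunits, rose by 0.33 ± 0.09 (limma adjusted p = 0.0151), and the coactivator CREBBP by 0.28 ± 0.07 (limma adjusted p = 0.0116).

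Each of these 3 calls ended when 1 array was left out. Without rosemary extract replicate 1 the count was 0, with limma adjusted p of 0.0620 for EGLN3, 0.0659 for ARNT and 0.0554 for CREBBP, and without rosemary extract replicate 2 it was 1 (EGLN3 0.115, ARNT 0.0662). EGLN3 also lost its call without untreated replicate 1 (0.0556) or 3 (0.0922), and ARNT without untreated replicate 2 (0.0555). Without extract replicate 3 the count was 4, as the coactivator EP300 then passed (0.0227). With all arrays EP300 (0.19), EGLN1 (0.12), the VHL ligase scaffold CUL2 (0.024) and ARNT2 (-0.012) did not pass; the sign of the last 2 turned under other settings.

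With carnosic acid 1 of the 7 was called, CREBBP at 0.26 ± 0.07 (limma adjusted p = 0.0312), where 12.9% of tested genes were called higher. That call ended when untreated replicate 2 (adjusted p = 0.0850) or carnosic acid replicate 1 (0.109) or 3 (0.0757) was left out, in a fit to the 6 arrays compared (0.0578) and in a fit without the mean-variance trend (0.0660). Without untreated replicate 3 the count was 2, as ARNT then passed (0.0402). ARNT (0.25), EGLN3 (0.17), CUL2 (0.16), EGLN1 (0.11), EP300 (0.11) and ARNT2 (0.096) did not pass with all arrays.

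Other hypoxia-inducible genes split. Of 47 listed, 26 had a named row and 24 were tested; BNIP3 and TMEM45A were dim, and CA9, PDK1 and SLC2A1 were among those with no named row. With the extract 10 of 24 were called higher and 2 lower, beside 21.8% and 16.3% of all tested genes, with a list median of 0.25. The largest rises were in VLDLR, a lipoprotein receptor that is also a target of ATF4, and in DDIT4, an inhibitor of mTORC1 that is likewise induced by several stresses. VLDLR read 4.87, 4.99 and 5.27 in untreated and 7.73, 7.90 and 7.54 in extract arrays (log2). Its rise was 2.68 ± 0.12 (SE; limma adjusted p = 3.29e-08). DDIT4 rose from 6.27, 6.29 and 6.37 to 8.19, 8.18 and 8.07, by 1.83 ± 0.08 (limma adjusted p = 3.29e-08). CA12, a membrane carbonic anhydrase, rose by 1.13 ± 0.08 (limma adjusted p = 8.40e-07) and BNIP3L, a mitophagy receptor, by 0.87 ± 0.10 (limma adjusted p = 3.37e-05).

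The other 6 higher genes and the 2 lower ones lie outside the naming rule for this comparison and were picked out with their values in view. RORA (0.70), SPAG4 (0.64), the histone demethylase KDM3A (0.60), ANKZF1 (0.58), INSIG2 (0.29) and ERO1A (0.27) rose. RORA was near the dim limit of 4.50 (log2) in untreated arrays, at 4.56, 4.51 and 4.49. CXCR4, a chemokine receptor, fell by 1.46 ± 0.19 (log2, SE; limma adjusted p = 9.61e-05), with 8.30, 7.95 and 8.14 in untreated and 6.57, 6.37 and 7.08 in extract arrays. HILPDA, an inhibitor of fat breakdown in lipid droplets, fell by 0.34 ± 0.11 (limma adjusted p = 0.0369). Only CXCR4 was lower when untreated replicate 1, 2 or 3 or extract replicate 1 or 3 was left out, where the adjusted p of HILPDA was 0.0814, 0.100, 0.0652, 0.116 and 0.114, and 1 under median centring (0.0684). It was also lost with no filter on dim genes (0.0511). ANKZF1 lost its call without untreated replicate 2 (0.0621) or extract replicate 1 (0.0568), and ERO1A without extract replicate 2 (0.0595). INSIG2 lost it without untreated replicate 1 (0.0710) or 2 (0.0791) or extract replicate 1 (0.100) or 2 (0.0612), and in the fit to 6 arrays (0.0513). The 12 that did not pass included ANKRD37 (-0.0034), with a 95% interval from -0.19 to 0.19. It was singled out after its values were seen. Its arrays read 5.36 to 5.62 (log2). Untreated replicate 3, extract replicates 1 and 3 and carnosic acid replicate 2 held exactly the same value. Whether this row can register a change was not tested.

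With carnosic acid 5 of the 24 were called higher and 1 lower, beside 12.9% and 6.12% of all tested genes, and the list median was 0.10 (-0.011 over all tested genes). VLDLR rose by 1.48 ± 0.12 (log2, SE; limma adjusted p = 1.19e-05), CA12 by 0.93 ± 0.08 (2.77e-05), BNIP3L by 0.49 ± 0.10 (0.00613) and DDIT4 by 0.42 ± 0.08 (0.00356). Carnosic acid replicates 1 and 2 held exactly the same value for VLDLR, and likewise for DDIT4, so their SE can understate the spread. SPAG4 rose by 0.65 and CXCR4 fell by 0.78, both named after their values were seen. CXCR4 lost its call when untreated replicate 1 (adjusted p = 0.0660) or carnosic acid replicate 1 (0.0683) was left out. Leaving out carnosic acid replicate 2 made the lower count 2, as STC2 then passed (0.0430).

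Set directly against carnosic acid, the extract gave 5 of the 24 genes called higher and 2 lower, beside 8.24% and 9.07% of tested genes. DDIT4 was higher by 1.41 ± 0.08 (log2, SE; limma adjusted p = 7.16e-07), VLDLR by 1.21 ± 0.12 (2.80e-05), the nuclear receptor RORA by 0.60 ± 0.11 (0.00262) and BNIP3L by 0.39 ± 0.10 (0.0216). RORA read 4.60, 4.68 and 4.59 in carnosic acid arrays, close to the dim limit of 4.50. The higher count was 3 without extract replicate 1 or 2 or carnosic acid replicate 2 or 3, where the adjusted p of BNIP3L was 0.0876, 0.0667, 0.0690 and 0.0919. MXI1 (0.36), HILPDA (-0.43) and CXCR4 (-0.68), named after their values were seen, each lost the call in the fit to 6 arrays (0.0592, 0.0605 and 0.0748). Leaving out extract replicate 1 or carnosic acid replicate 3 also ended all 3 calls, with adjusted p of 0.0960 and 0.108 for MXI1, 0.0877 and 0.0713 for HILPDA, and 0.114 and 0.136 for CXCR4. Without extract replicate 2 or 3 or carnosic acid replicate 2, the lower count was 1. MXI1 had an adjusted p of 0.606 when its rows were averaged.

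**Figure D3:**
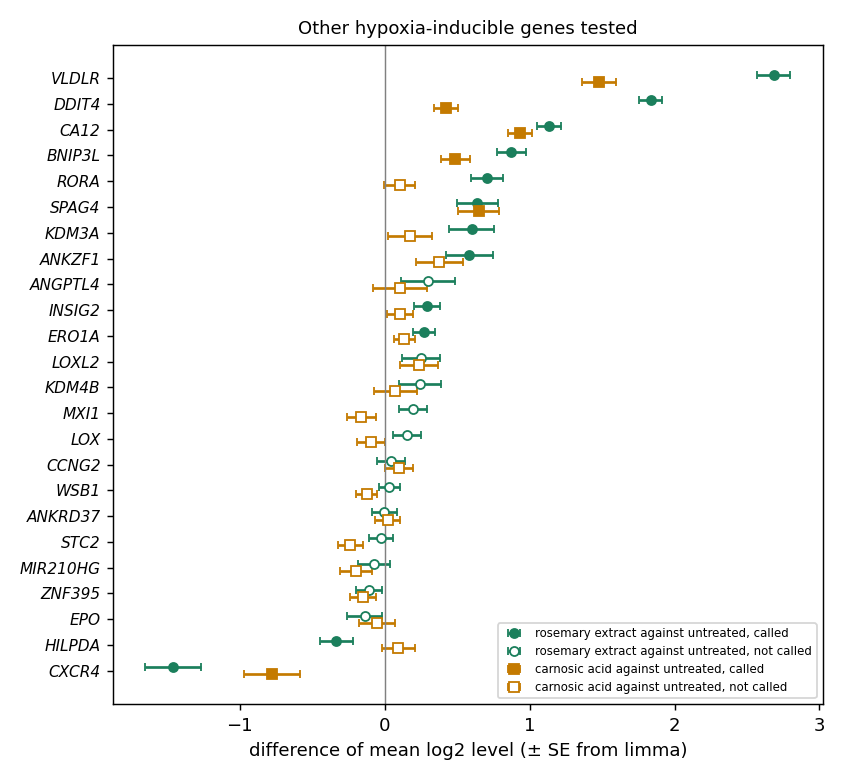
Difference of mean log2 level from untreated cells (horizontal axis, with limma's SE as bars) for the 24 tested genes of the hypoxia-inducible list, for rosemary extract (circles) and carnosic acid (squares). Filled symbols passed an adjusted p under 0.05. VLDLR (2.68 and 1.48) is at the top and CXCR4 (-1.46 and -0.78) at the bottom, and many genes lie near 0.

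The glycolytic genes tested did not move as a block. Of 20 listed, 9 had a named row and all 9 were tested. Their levels differed widely, from 6.49 for TPI1 to 11.57 for GPI in untreated replicate 1 (log2). GAPDH read 7.29 and LDHA 7.57 in that array. Whether the rows with the lower levels can register a change in these genes was not tested. With the extract 2 of 9 were called higher and 2 lower, beside 21.8% and 16.3% of all tested genes, with a median log2 difference of -0.099. HKDC1, a hexokinase family member, rose and HK1, the isoform found in most tissues, rose slightly. PGAM1, phosphoglycerate mutase, fell by 0.60 ± 0.10 (log2, SE; limma adjusted p = 0.000513) and LDHB, a lactate dehydrogenase subunit, by 0.58 ± 0.08 (limma adjusted p = 0.000117). After cyclic loess scaling GPI (0.0447) and PGK1 (0.0452) passed too, and the lower count was 4. With carnosic acid 1 of 9, HKDC1, was called higher and 2 lower, beside 12.9% and 6.12% of all tested genes. The lower ones were LDHB (-0.31, limma adjusted p = 0.0180) and PGAM1 (-0.35, limma adjusted p = 0.0292). The adjusted p of LDHB was 0.0515 and 0.0584 when untreated replicate 2 and 3 were dropped in turn, and 0.0679 when the array dropped was carnosic acid replicate 1. That of PGAM1 was 0.111 and 0.0718 with untreated replicate 1 and 3 dropped in turn, 0.0814 and 0.0845 with replicate 1 and 2 of the carnosic acid group, and 0.0579 under median centring. GAPDH stood at 0.24 (limma adjusted p = 0.0551) and passed under median centring (0.0358), with the dimmest 50% of genes left out (0.0402) and with the replicate block (0.0351).

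The hexokinases differed from each other, as the plot of NDRG and hexokinase genes shows. HKDC1 read 7.37, 7.01 and 7.0 in untreated arrays, 8.39, 8.17 and 8.14 with carnosic acid and 9.40, 9.37 and 9.04 with the extract (log2), with no overlap between groups. It rose by 2.15 ± 0.12 with the extract (SE; limma adjusted p = 1.50e-07), a 4.42-fold rise, and by 1.11 ± 0.12 with carnosic acid (limma adjusted p = 0.000115). The extract gave a level higher than carnosic acid by 1.04 ± 0.12 (limma adjusted p = 0.000133). HK1 read 8.05, 8.21 and 8.0 in untreated and 8.35, 8.33 and 8.44 in extract arrays, a rise of 0.28 ± 0.07 (limma adjusted p = 0.00594). HK1 did not pass with carnosic acid (0.11, adjusted p = 0.281). So the levels of HK2 were lowest in extract arrays, while those of HK1 and HKDC1 were highest there. HK3 was dim.

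The NDRG relatives did not share the levels of NDRG1. NDRG2 read 5.38, 5.49 and 5.26 in untreated and 4.96, 4.90 and 5.14 in extract arrays (log2). It fell by 0.38 ± 0.09 with the extract (SE; limma adjusted p = 0.00737), and stood at -0.27 with carnosic acid (adjusted p = 0.0677), which passed without untreated replicate 3 (0.0493). NDRG4 was at 0.16 with the extract (adjusted p = 0.25) and NDRG3 at 0.14 with carnosic acid (adjusted p = 0.302), and neither passed.

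**Figure D4:**
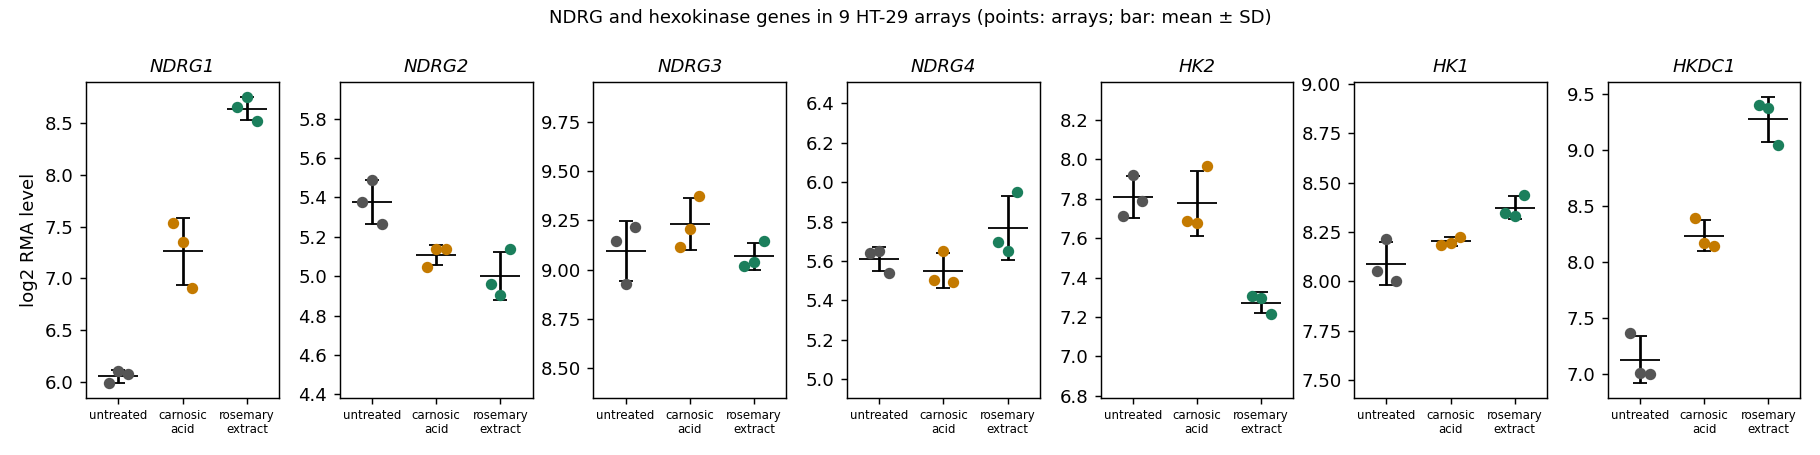
Log2 RMA level in each array of NDRG1 to NDRG4, HK2, HK1 and HKDC1. Points are arrays, bars are the mean ± SD (n = 3), and each panel has its own vertical range. NDRG1 and HKDC1 are highest and HK2 lowest in extract arrays, while the extract and carnosic acid arrays of NDRG2 overlap.

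Among ligands and receptors of the VEGF and adrenomedullin systems, 17 of 19 listed genes had a named row and 13 were tested. KDR, CALCRL, RAMP2 and ANGPT2 were dim. With the extract 2 of 13 were called higher and 1 lower, beside 21.8% and 16.3% of all tested genes. The counts were equal with carnosic acid, beside 12.9% and 6.12%, and the list medians were -0.045 and -0.067. NRP1, a VEGF coreceptor, read 7.83, 7.76 and 8.05 in untreated arrays, 8.61, 8.67 and 8.68 with carnosic acid and 8.66, 8.86 and 8.88 with the extract. It rose by 0.92 ± 0.09 with the extract (log2, SE; limma adjusted p = 5.63e-06) and by 0.77 ± 0.09 with carnosic acid (limma adjusted p = 0.000112). NRP2, its relative, rose by 0.64 ± 0.10 (limma adjusted p = 0.000251) and 0.70 ± 0.10 (limma adjusted p = 0.000504); with the dimmest 50% of genes left out it was not tested.

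Endothelin 1, encoded by EDN1, a vasoconstrictor peptide, fell. It read 10.12, 9.98 and 10.18 in untreated arrays, 8.10, 7.90 and 8.46 with carnosic acid and 8.03, 7.71 and 7.53 with the extract. The log2 difference was -2.33 ± 0.14 with the extract (SE; limma adjusted p = 2.62e-07) and -1.94 ± 0.14 with carnosic acid (limma adjusted p = 9.03e-06). Between the treatments limma called 0 of the 13, beside 17.3% of all tested genes, with 1 of the 13 at an unadjusted p under 0.05. That was EDN1 (-0.40, adjusted p = 0.0889), which passed without extract replicate 1 (0.0350) or carnosic acid replicate 2 (0.0388). Leaving out carnosic acid replicate 2 brought the lower count with carnosic acid to 2, as RAMP1 then passed (0.0206). CALCB stood at -0.21 with the extract (adjusted p = 0.0954) and -0.25 with carnosic acid (adjusted p = 0.0867).

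Of 9 genes tied to EPAS1 in iron handling, lipid storage or growth, 4 had a named row and were tested, and the iron transporters SLC11A2 and SLC40A1 had none. PLIN2, a lipid droplet coat protein, read 5.44, 5.77 and 5.79 in untreated and 7.15, 6.82 and 6.56 in extract arrays. All 3 carnosic acid arrays held the same value, 6.26, so that group added no spread to the SE and p-values. Ties across the 3 arrays of 1 group were counted 357 times among tested genes. PLIN2 rose by 1.18 ± 0.14 with the extract (log2, SE; limma adjusted p = 4.44e-05) and by 0.59 ± 0.14 with carnosic acid (limma adjusted p = 0.0128), a call lost without untreated replicate 1 (0.0535). The extract gave the higher level by 0.58 ± 0.14 (limma adjusted p = 0.0142), lost without extract replicate 1 (0.0547).

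CYBRD1, an iron reductase of the gut, was lower with carnosic acid by -0.46 ± 0.14 (log2, SE; limma adjusted p = 0.0459). It lost the call when any array but untreated replicate 3 or carnosic acid replicate 2 was dropped, with adjusted p of 0.155 and 0.132 for untreated replicates 1 and 2, 0.0546, 0.0658 and 0.0578 for the extract arrays, and 0.104 and 0.152 for carnosic acid replicates 1 and 3. With the extract it stood at -0.37 (adjusted p = 0.0689), and passed without untreated replicate 3 (0.0247) or carnosic acid replicate 3 (0.0411). CCND1 (-0.13 and -0.055) and POU5F1 (-0.12 and -0.098) did not pass with the extract or carnosic acid, except CCND1 with the extract after cyclic loess (0.0453).

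The genes nearest in pattern to each member were taken as those with the smallest root mean square difference of centred log2 values over the 9 arrays. For NDRG1 these were CPEB4, an mRNA-binding protein (0.15), the histone demethylase KDM7A (0.18) and the sulfiredoxin SRXN1 (0.19). For VEGFA they were GTPBP2, a GTP-binding protein (0.086), the lectin CD22 (0.11) and the pseudogene GGT3P (0.12). For ADM they were TMEM65 (0.068), SEL1L, an adaptor of ER-associated degradation (0.073), and CLIP1, a microtubule-binding protein (0.091). For EPAS1 they were GPAT3, an enzyme of glycerolipid synthesis (0.10), the pseudogene AQP7P3 (0.14) and the Notch ligand JAG1 (0.16). For HK2 they were FAAP24, a DNA repair protein (0.061), the kinase SYK (0.063) and EXOSC6, a subunit of the RNA exosome (0.068).

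Rows of the pseudogenes GGT3P and AQP7P3 can share sequence with their parent genes and are uncertain. Among the members, VEGFA and ADM were nearest to each other (0.23), then NDRG1 and EPAS1 (0.36), and HK2 lay 0.67 to 1.30 from the other 4. Each member therefore had genes outside the set that were nearer to it than any member. The outside genes were drawn from 11163 tested genes and the members from only 4 others. A nearer outside gene is therefore likely for any gene, and no conclusion about the set is drawn from it. The 9 arrays fall into the 3 groups, so nearness largely reflects the group means.

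**Figure D5:**
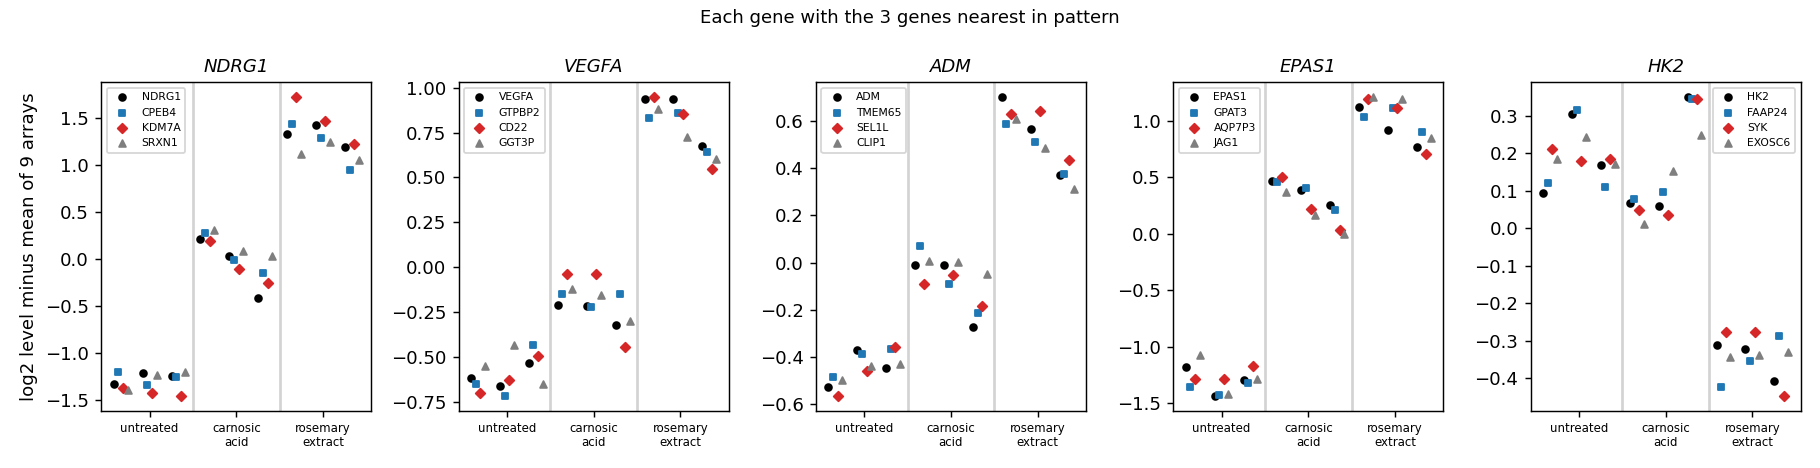
Log2 level minus the mean of the 9 arrays for each of the 5 genes (black circles) and the 3 genes nearest to it in pattern, in untreated, carnosic acid and rosemary extract arrays (3 each, left to right). The nearest genes lie 0.061 to 0.19 (root mean square) from their member.

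As a check of the labelled cell type, 7 of 10 intestinal epithelial markers had a named row and all 7 lay above the dim limit of 4.50 (log2). Their mean level per array was 9.58 to 9.61 in untreated, 9.59 to 9.61 in carnosic acid and 9.30 to 9.44 in extract arrays. These means hide changes in both directions. With the extract 1 of 7 was called higher and 3 lower, beside 21.8% and 16.3% of all tested genes. With carnosic acid 2 were higher and 3 lower, beside 12.9% and 6.12%, from -0.35 (VIL1) to 0.88 (KRT20). VIL1, KRT18 and EPCAM were lower and KRT20 higher with both, and KRT19 was higher with carnosic acid. VIL1, the villin of intestinal microvilli, fell by 1.29 ± 0.07 with the extract (log2, SE; limma adjusted p = 1.52e-07), and KRT20 rose by 0.77 ± 0.06 (limma adjusted p = 8.13e-07). Of endothelial markers 7 of 9 had a row; PECAM1, KDR, TIE1 and EMCN were dim, and VWF, ESAM and CLDN5 were not. Their mean level was 5.14 to 5.16 in untreated, 5.04 to 5.20 in carnosic acid and 5.05 to 5.19 in extract arrays. Within that list ESAM, an adhesion molecule, rose by 0.44 ± 0.07 with the extract (log2, SE; limma adjusted p = 0.000246) and by 0.35 ± 0.07 with carnosic acid (limma adjusted p = 0.00355). The 2 fibroblast markers with a row, DCN and LUM, were dim in each group (array means 3.1 to 3.4). Of leukocyte markers only CD68 and CD14 had a row, with a mean of 6.42 to 6.48 in untreated, 6.80 to 7.09 in carnosic acid and 7.12 to 7.36 in extract arrays. CD68, also a lysosomal membrane protein, rose by 1.89 ± 0.08 with the extract (limma adjusted p = 3.29e-08), while CD14 stood at -0.31 with the extract and -0.27 with carnosic acid and did not pass, so the higher mean came from CD68. PTPRC had no named row. The part of these marker shifts in the levels of the 5 genes was not tested. In bulk RNA, fewer cells of a kind and less RNA per cell cannot be told apart.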

How the data were processed

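RNA of 9 HT-29 samples was measured on arrays. The deposited values are log2 expression values made by the authors with RMA in the oligo package, per the labels. No versions are given in the sources used here. RMA shrinks large folds and makes no present or absent call. Array medians lay between 4.82 and 4.90, and arrays of a group correlated at 0.991 to 0.993 over all rows. With 3 arrays in each group, their number limits precision.

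The platform annotation gave 16098 rows a single symbol. For each gene the row with the highest mean was used, and the dimmest 25% (3721 genes) were left out. One model of group means over the 9 arrays was fitted (limma 3.58.1, R 4.3.3; eBayes with trend after lmFit; two-sided p, adjusted by Benjamini-Hochberg over 11163 genes). The fit was tested on simulated data with normal noise, independent between arrays, and few changed genes. Those data held none of the exact ties seen here, so the test cannot show how the fit performs on these arrays. The labels name no shared day, so the main fit has no block. Deviations of same-numbered replicates correlated at -0.22 to 0.24, which cannot show whether those arrays were paired.

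The 5 genes and the gene lists were chosen with earlier results of these data known, and the 5 genes stay out of every list. Counts and medians describe a list; no set test was made. Named genes are the 5, the tested oxygen-sensing genes, up to 4 genes of each other list with the smallest p per comparison, and the 3 nearest in pattern to each of the 5. RefSeq windows come from GRCh38.p14.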

Additional observations from a re-analysis of the deposited data

How the results depend on the processing

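The alternatives were median centring, cyclic loess, no filter, leaving out the dimmest 50%, the mean of a gene's rows, no trend, only the 6 arrays compared, the replicate block and leaving out each array. The 15 differences of the 5 genes moved by less than the spread between arrays under median centring and under cyclic loess. The other settings could not fail this comparison. With 3 arrays per group, leaving out 1 array cannot move a mean that far, and the rest leave these differences unchanged. The carnosic acid difference of HK2, whose groups overlap, changed sign with 1 array left out (-0.13 to 0.027). With the replicate block 4226, 2194 and 1947 genes were called (extract, carnosic acid, direct), beside 4256, 2123 and 1933. The pairing check found correlations of -0.22 to 0.24 between same-numbered replicates. With 3 arrays per group, these cannot show whether the numbers pair the arrays. The block made glycolysis counts 2 (carnosic acid higher, with GAPDH, and direct lower) and changed no other list count by over 1.5 times. As background for all list counts, the main fit called 21.8% of tested genes higher and 16.3% lower with the extract. The shares were 12.9% and 6.12% with carnosic acid, and 8.24% and 9.07% directly.

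With the extract, the lower count of the hypoxia list was 1 under median centring, of glycolysis 4 under cyclic loess, of the EPAS1 list 1 under cyclic loess and of the NDRG and hexokinase list 0 with the dimmest 50% left out, which also left 1 VEGF and adrenomedullin gene higher with either treatment. With carnosic acid, the oxygen list had 0 higher without trend or with 6 arrays. Glycolysis had 2 higher under median centring or with the dimmest 50% left out, and 1 lower under median centring. The EPAS1 list had 0 lower under cyclic loess, no filter, the dimmest 50% left out, no trend or 6 arrays. Directly, the hypoxia list had 0 lower with 6 arrays, and glycolysis 0 lower with no filter or no trend. ARNT2 turned to 0.017 (median centring) and 0.038 (cyclic loess), and CUL2 to -0.021 (cyclic loess), with the extract. The cause was not tested.

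Leaving out 1 array gave these ranges. With the extract, the oxygen list had 0 to 4 higher, the hypoxia list 1 to 2 lower and the EPAS1 list 0 to 1 lower. With carnosic acid, 1385 (without carnosic acid replicate 1) to 2124 genes were called, the oxygen list had 0 to 2 higher, and 0 to 2 genes were lower in the hypoxia and glycolysis lists, 1 to 2 in the VEGF and adrenomedullin list and 0 to 1 in the NDRG and hexokinase list. The EPAS1 list had 0 to 1 higher and 0 to 1 lower. Directly, the hypoxia list had 3 to 6 higher and 0 to 2 lower, glycolysis 0 to 2 lower, the VEGF and adrenomedullin list 0 to 1 lower and the EPAS1 list 0 to 1 higher. ARNT2 ran from -0.044 to 0.015, CUL2 from -0.032 to 0.065 and POU5F1 from -0.23 to 0.018 with the extract, and POU5F1 from -0.22 to 0.094 with carnosic acid.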
